A study of Mus musculus with 8 samples.

Results

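The 7 lymphatic endothelial genes Prox1, Lyve1, Pdpn, Ccl21a, Reln, Foxc2 and Mmrn1 were read from the deposited gene table by their symbols, and all 7 were found among its 35756 rows. Tumor endothelial cells were sequenced from 8 C57BL/6 mice that all carried Tie2-CreERT2;PPARβ/δ. In this system the Tie2 promoter drives a Cre that needs Tamoxifen to act, and active Cre turns on additional PPARβ/δ in the cell. The Tamoxifen group (4 libraries) had received 33 mg/kg Tamoxifen per day for 1 week, and the vehicle group (4 libraries) sunflower oil. Lewis lung carcinoma cells (LLC1) were placed under the skin 1 week later, and after another 3 weeks tumors were taken and CD31 MicroBeads used to isolate endothelial cells. The labels list the vehicle genotype as wild-type, but by the methods the groups differ only in treatment. Tie2 is also active in some blood-forming cells, CD31 is carried by platelets and some leukocytes as well as by endothelium, and no library of Tamoxifen-treated mice without the PPARβ/δ allele was analysed here. The overexpression, Tamoxifen itself and active Cre therefore cannot be told apart. The sources used here do not give the age or sex of the mice.

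Lymphatic vessels drain fluid and immune cells from tissues, and their endothelium arises mostly from veins in which the transcription factor PROX1 switches on a lymphatic programme. VEGF-C, acting on the receptor VEGFR-3 (encoded by Flt4), makes these vessels grow, FOXC2 is needed for their valves, and CCL21 guides dendritic cells and T cells into them. In tumors, lymphatic vessels are known as a route to the draining lymph nodes. Several of these genes are not limited to lymphatic cells: Lyve1 is also found on tissue macrophages, Pdpn on fibroblasts and some macrophages, Ccl21a in the stroma of lymph nodes and Mmrn1 in platelets.

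The libraries held 19730726 to 24884372 counts. Vehicle library oil2453 stood apart by its share of ribosomal protein reads (22.4%, against 4.88% to 11.0% in the other libraries), and vehicle library oil2653 by 7 lymphocyte markers, whose summed level was 515 CPM (counts scaled to 1e+06 per library) against 15.7 to 98.0 CPM elsewhere. CPM values are scaled here by TMM, which sets libraries to a common level of most genes. Ppard was at 108 ± 24.6 CPM in the Tamoxifen group and 74.4 ± 15.2 CPM in the vehicle group (SD, 4 libraries each), and the groups overlapped. The sources used here do not say if transcripts of the added allele count towards Ppard. The 17 pan-endothelial markers summed to 3110 to 5963 CPM in the Tamoxifen libraries and to 448 to 2211 CPM in the vehicle libraries, so their ranges did not overlap.

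Foxc2 was the only member whose groups did not overlap, and it was 5.20-fold higher with Tamoxifen by the ratio of means. Lyve1 was 2.13-fold higher, with an overlap of 1 Tamoxifen library and 1 vehicle library. Prox1, Pdpn, Ccl21a and Reln were also higher on average and Mmrn1 was lower, with groups that overlapped in each. No member was called at an adjusted p under 0.05 by edgeR (quasi-likelihood), nor was any of the 14539 genes tested (0.0%), of which 1590 were under an unadjusted p of 0.05. DESeq2, run on the same genes, called 574. The smallest adjusted p of edgeR was 0.0732 and was shared by 53 genes, Foxc2 among them.

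At an unadjusted p under 0.05, edgeR placed 2 of the 6 tested members higher with Tamoxifen (Foxc2 and Lyve1), against 7.39% of all genes tested. Groups without overlap, with every Tamoxifen library above every vehicle library, were seen in 1 of the 6 (Foxc2), against 5.87% of all genes tested. The median log2 fold change of the 6 was 1.08, beside -0.03 over all genes tested, and 0.35 without Tax2604. Reln, the seventh, did not pass the filter on low counts and has no test.

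**Figure D1:**
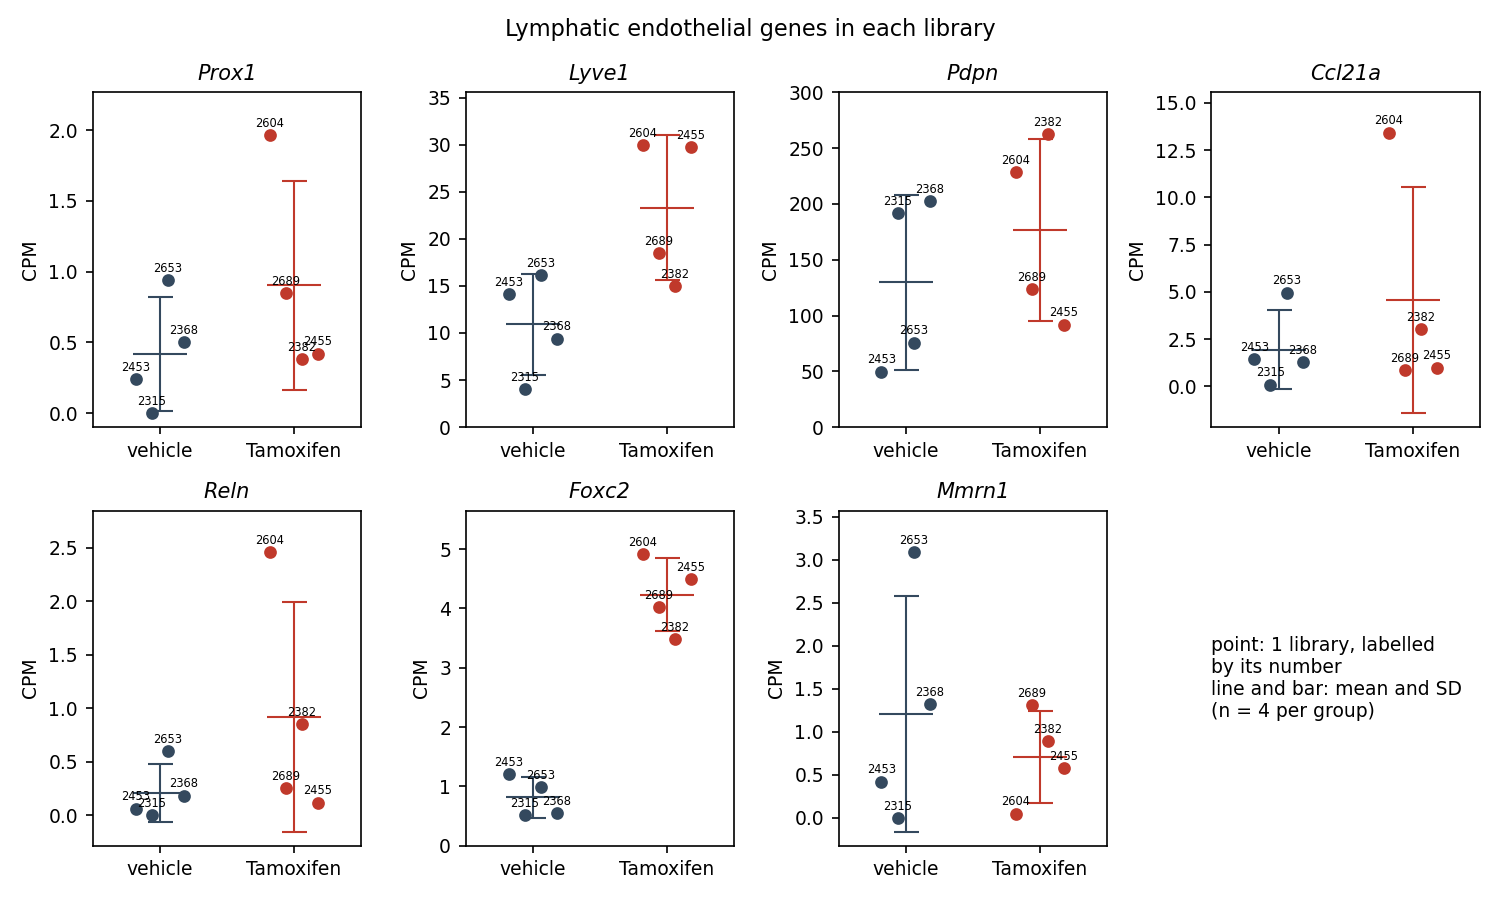
Level of each member (CPM, vertical axis) in the 4 vehicle and the 4 Tamoxifen libraries, with points labelled by library number and lines for mean and SD. The Foxc2 points of the Tamoxifen libraries lie between 3.48 and 4.91 CPM and all vehicle points at or under 1.21 CPM, while the groups overlap in the other 6 panels.

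The members spanned a wide range of levels. In the authors' FPKM, which divides by gene length, the medians over the 8 libraries were 132 for Pdpn, 5.91 for Lyve1, 1.38 for Ccl21a, 0.791 for Foxc2, 0.226 for Mmrn1, 0.0965 for Prox1 and 0.0628 for Reln. Pdpn lay above Lyve1 in all 8 libraries and Lyve1 above Ccl21a in 7 of 8. Further down, the order depended on the library: Ccl21a exceeded Foxc2 in 5 libraries, Mmrn1 exceeded Prox1 in 6 and Prox1 exceeded Reln in 5, and in none of these pairs were the neighbours apart beyond their spread. Foxc2 exceeded Mmrn1 in all 4 Tamoxifen libraries, at a mean FPKM of 1.62 ± 0.295 against 0.226 ± 0.174, but in only 2 of the 4 vehicle libraries, where the means were 0.279 ± 0.0892 and 0.371 ± 0.439 (SD). Pecam1, which encodes CD31, had a mean FPKM of 356 ± 67.8 in the Tamoxifen group and 119 ± 37.7 in the vehicle group, beside 139 ± 56.7 and 102 ± 67.2 for Pdpn (SD, 4 libraries each). Prox1, the defining transcription factor of lymphatic endothelium, held 0 to 40 counts per library.

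Prox1, the transcription factor that sets and keeps lymphatic identity, lies on chromosome 1 from 190118035 to 190170714 (GRCm38, minus strand). Its counts in the vehicle libraries were 4 in oil2453, 0 in oil2315, 22 in oil2653 and 11 in oil2368, and in the Tamoxifen libraries 40 in Tax2604, 20 in Tax2689, 9 in Tax2382 and 11 in Tax2455. Only Tax2604 lay above every vehicle library, and 2 Tamoxifen libraries were at or below the count of oil2368. At a count of 0, oil2315 allows a level of up to 0.139 CPM, the value of 3 counts, for counting error only. The mean level was 0.904 ± 0.738 CPM in the Tamoxifen group and 0.422 ± 0.403 CPM in the vehicle group (SD, 4 libraries each). The log2 fold change was 1.06 (standard error, SE, 0.92, edgeR adjusted p = 0.665). It was 0.38 without Tax2604 and 1.83 without oil2653, and neither passed the test. The annotated genes that overlap Prox1, among them the antisense gene Prox1os, held 2 counts in all.

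Foxc2, a forkhead transcription factor needed for lymphatic valves and for the maturation of collecting vessels, lies on chromosome 8 from 121116171 to 121118895 (GRCm38, plus strand). The vehicle libraries held 20 counts in oil2453, 11 in oil2315, 23 in oil2653 and 12 in oil2368, and the Tamoxifen libraries 100 in Tax2604, 95 in Tax2689, 82 in Tax2382 and 117 in Tax2455. The lowest Tamoxifen library thus held over 3 times the counts of the highest vehicle library. Scaled to depth, the vehicle libraries were at 1.21, 0.510, 0.985 and 0.548 CPM and the Tamoxifen libraries at 4.91, 4.02, 3.48 and 4.49 CPM, in the same order. The mean was 4.23 ± 0.615 CPM in the Tamoxifen group and 0.812 ± 0.340 CPM in the vehicle group (SD, 4 libraries each).

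The log2 fold change of Foxc2 was 2.38 (SE 0.40, edgeR adjusted p = 0.0732 over 14539 genes), and it ranked 28 by p. In an exact two-sided permutation test of the log2 level, p was 0.0286, the smallest that the 70 assignments of 4 against 4 libraries can give. The call depended on the processing. Of 17 alternatives, 6 placed Foxc2 under an adjusted p of 0.05, with adjusted p from 2.95e-07 (DESeq2) to 0.876 (scaled to the pan-endothelial markers) over all 17. DESeq2 called 3.78% of all genes tested higher with Tamoxifen. Without oil2453, edgeR gave Foxc2 a log2 fold change of 2.63 (adjusted p = 0.0382) and called 1.72% of 14860 genes higher. Without oil2653 the log2 fold change was 2.49 (adjusted p = 0.268). The log2 fold change was above 0 under all 17 alternatives, from 0.14 with the pan-endothelial scaling to 2.63.

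Lyve1 encodes a hyaluronan receptor on lymphatic endothelium and on some tissue macrophages, and lies on chromosome 7 from 110850607 to 110862953 (GRCm38, minus strand). Its level was 14.1 CPM in oil2453, 4.04 in oil2315, 16.1 in oil2653 and 9.41 in oil2368, and 30.0 CPM in Tax2604, 18.5 in Tax2689, 15.0 in Tax2382 and 29.7 in Tax2455. The groups overlapped only through Tax2382 and oil2653. The mean was 23.3 ± 7.71 CPM in the Tamoxifen group and 10.9 ± 5.38 CPM in the vehicle group (SD, 4 libraries each), and the log2 fold change 1.09 (SE 0.43, edgeR unadjusted p = 0.0289 and adjusted p = 0.401). An exact two-sided permutation test of the log2 level gave p = 0.0571. No alternative brought its adjusted p under 0.05.

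Because Lyve1 is shared with macrophages, the 8 markers of Lyve1-type tissue macrophages were set beside it. Their summed level was 868 to 2408 CPM in the Tamoxifen libraries and 322 to 2219 CPM in the vehicle libraries, with overlap, and 0 of 8 passed an unadjusted p of 0.05 in edgeR. Mrc1, the mannose receptor, was at 812 ± 565 CPM in the Tamoxifen group and 966 ± 615 CPM in the vehicle group (SD, 4 libraries each). Tax2382, where Lyve1 was lowest among the Tamoxifen libraries, had the highest sum of these markers. Most of that sum came from Mrc1 alone (1578 of 2408 CPM). Over the 8 libraries, after subtraction of each group's mean, Lyve1 had a Pearson's r of -0.36 with these markers and 0.61 with the pan-endothelial markers. With 7 fibroblast markers its r was nearly the same as with the pan-endothelial ones, at 0.59. By ranks (Spearman's rho) the values were weaker, at -0.17, 0.52 and 0.50 in the same order. These are descriptions over 8 libraries that share their depth scaling. In bulk samples such as these, fewer cells of a type and less RNA per cell cannot be told apart.

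Pdpn encodes podoplanin, a membrane glycoprotein that binds the platelet receptor CLEC-2 and keeps lymphatic and blood vessels separate. It lies on chromosome 4 from 143267431 to 143299564 (GRCm38, minus strand). It had 825 counts in oil2453, 4131 in oil2315, 1766 in oil2653 and 4427 in oil2368, and 4646 in Tax2604, 2922 in Tax2689, 6175 in Tax2382 and 2394 in Tax2455. High and low libraries were found in both groups. The mean was 177 ± 81.7 CPM in the Tamoxifen group and 130 ± 78.3 CPM in the vehicle group (SD, 4 libraries each), and the log2 fold change 0.44 (SE 0.50, edgeR adjusted p = 0.747).

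Pdpn did not follow the other members from library to library. It was lowest in oil2453 and highest in Tax2382, whereas the other 6 members were lowest in oil2315. After subtraction of the group means its Pearson's r was 0.65 with 7 macrophage markers, -0.54 with 7 fibroblast markers and -0.26 with the pan-endothelial markers, over 8 libraries. The macrophage markers summed to 3081 CPM in oil2453, the lowest of all libraries, and to 9117 CPM in Tax2382, the highest. Fibroblast markers summed to 396 to 3051 CPM with Tamoxifen and to 1083 to 2964 CPM with vehicle. In oil2453, with the highest vehicle sum, most of it came from the marker Col3a1 alone (2488 CPM). The marker Col1a1 was at 35.6 CPM there and at 176 CPM in oil2653, with the lowest vehicle sum. Tax2382, with the most Pdpn, had the lowest fibroblast sum. The part of macrophages or fibroblasts in the level of Pdpn was not tested.

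Ccl21a encodes a chemokine that binds CCR7 and is made by lymphatic endothelium and by lymph node stroma. It lies on chromosome 4 from 42772860 to 42773993 (GRCm38, minus strand) and has near-identical copies on the same chromosome, so its counts depend on the treatment of reads that fit several copies, which no source used here states. The GENCODE M21 transcript of Ccl21a has 870 bases, of which that of Gm21541 (chromosome 4, 41903610 to 41904743, plus strand; Ccl21d in RefSeq) shares all but 6. Positions counted from the first base of the Ccl21a transcript, these 6 substitutions are G24A, T159A, C269T, C640T, T812C and G856A. T159A and C269T lie in the coding part (bases 76 to 477) and are also the differences of Ccl21b and Gm10591. The stretches of 30 bases around them are shown, since only reads that cross such a base tell the copies apart, with the differing base in capitals.
Ccl21a, bases 144 to 173: cagtgatggagggggTcaggactgctgcct
Gm21541, bases 144 to 173: cagtgatggagggggAcaggactgctgcct
Ccl21a, bases 254 to 283: cggcaatcctgttctCaccccggaagcact
Gm21541, bases 254 to 283: cggcaatcctgttctTaccccggaagcact
Of the 771 stretches of 100 bases in the Ccl21a transcript, 50.3% also occurred in at least 1 of the 4 copies. In the table, Ccl21a held 560 counts over the 8 libraries and its 4 copies 9 in all, at most 3 in a library.

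Counts of Ccl21a were 24 in oil2453, 2 in oil2315, 116 in oil2653 and 28 in oil2368, and 273 in Tax2604, 20 in Tax2689, 71 in Tax2382 and 26 in Tax2455. Most of the signal of each group came from 1 library: Tax2604 held 73.4% of the summed CPM of the Tamoxifen group and oil2653 63.8% of that of the vehicle group. The mean was 4.57 ± 5.98 CPM in the Tamoxifen group and 1.95 ± 2.10 CPM in the vehicle group (SD, 4 libraries each). The log2 fold change was 1.22 (SE 1.09, edgeR adjusted p = 0.674), and 1.23 with the copies added. Without Tax2604 it was -0.24 and without oil2653 2.28, so the direction rested on Tax2604. In oil2653, 5 markers of lymph node stroma and high endothelial venules summed to 10.2 CPM, against 0.425 to 6.75 CPM in the other libraries, and the lymphocyte markers were highest. Most of that sum came from the marker Glycam1 alone, at 7.93 CPM in oil2653. Glycam1 was also at 5.49 CPM in oil2453, where the lymphocyte markers were lowest (15.7 CPM). The part of lymph node tissue in oil2653 was not tested. These last marker lists were chosen once values were known. None of the markers of other cell types used here was at 0 in all 8 libraries.

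Reln encodes reelin, a secreted glycoprotein made by lymphatic endothelium and known best for guiding neurons. It lies on chromosome 5 from 21884454 to 22344702 (GRCm38, minus strand). It had 1, 0, 14 and 4 counts in vehicle libraries oil2453, oil2315, oil2653 and oil2368, and 50, 6, 20 and 3 in Tamoxifen libraries Tax2604, Tax2689, Tax2382 and Tax2455. Only 2 Tamoxifen libraries and 1 vehicle library reached 10 counts, and Tax2604 held 66.8% of the summed CPM of its group. The mean was 0.919 ± 1.07 CPM in the Tamoxifen group and 0.211 ± 0.270 CPM in the vehicle group (SD, 4 libraries each; exact two-sided permutation test of the log2 level, p = 0.2). Fitted without the low-count filter, edgeR gave a log2 fold change of 2.04 (SE 1.07, edgeR adjusted p = 0.597).

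Mmrn1 encodes multimerin 1, a large matrix protein of lymphatic endothelium and platelets, and lies on chromosome 6 from 60924976 to 60989378 (GRCm38, plus strand). It had 7 counts in oil2453, 0 in oil2315, 72 in oil2653 and 29 in oil2368, and 1 in Tax2604, 31 in Tax2689, 21 in Tax2382 and 15 in Tax2455. The vehicle group held both its highest and its lowest library. Tax2604, where Prox1, Lyve1, Ccl21a, Reln and Foxc2 were highest, had a single Mmrn1 count. The mean was 0.708 ± 0.533 CPM in the Tamoxifen group and 1.21 ± 1.37 CPM in the vehicle group (SD, 4 libraries each), and the log2 fold change was -0.77 (SE 1.12, edgeR adjusted p = 0.813). Without oil2653 it was 0.28. Platelet and megakaryocyte markers summed to 159 to 809 CPM with Tamoxifen and to 262 to 601 CPM with vehicle, and Mmrn1 had a Pearson's r of -0.40 with them and of 0.75 with the lymphocyte markers over the 8 libraries, after subtraction of group means.

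**Figure D2:**
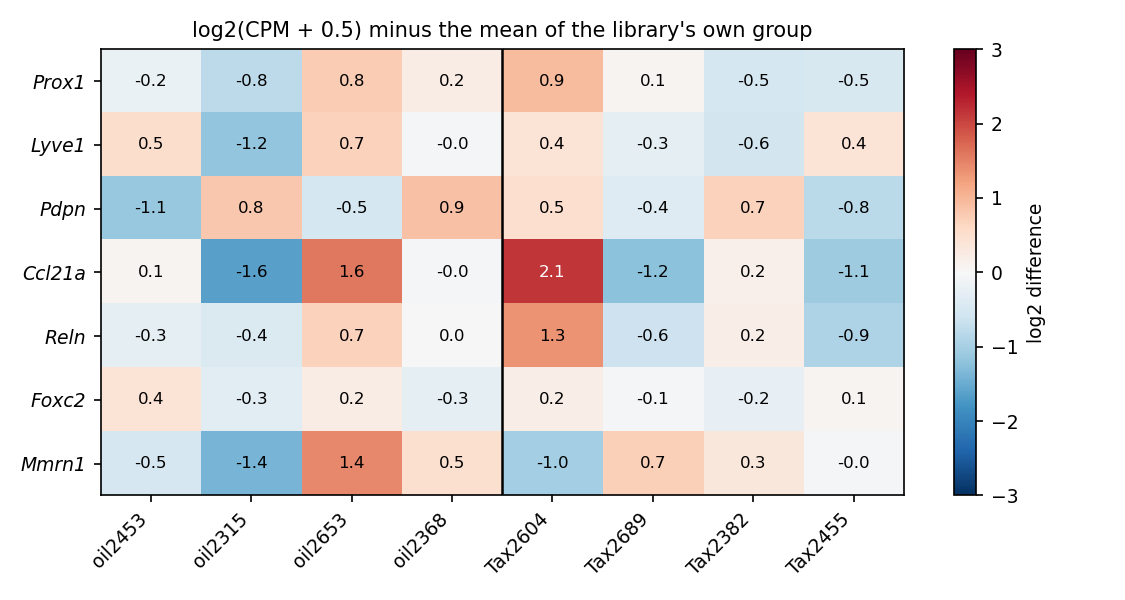
Difference between each library's log2(CPM + 0.5) and the mean of its own group (colour and number), for the 7 members (rows) and the 8 libraries (columns). Tax2604 and oil2653 are high for Prox1, Lyve1, Ccl21a and Reln, oil2315 is low for every member but Pdpn, and Tax2604 is low for Mmrn1.

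The members thus did not vary as a single block. With group means subtracted, the closest pair was Ccl21a and Reln, with a Pearson's r of 0.94 over 8 libraries, and both were highest within their group in Tax2604 and oil2653. Lyve1 and Foxc2 followed with 0.85 and Prox1 and Ccl21a with 0.83, whereas Pdpn and Foxc2 had -0.79 and Reln and Mmrn1 0.01. These values describe 8 libraries with common scaling and, for Prox1, Reln and Mmrn1, very few counts.

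Among 13241 genes with a mean of at least 1 CPM, those whose pattern over the 8 libraries was most like that of a member were found in the same way. For Foxc2 they were Hspa4 (a heat shock protein; r = 0.99), 2310033P09Rik and Ccm2 (0.97 and 0.96). For Lyve1 they were Rcn3, Apod (apolipoprotein D) and Rab30, with 0.96, 0.96 and 0.95. For Pdpn they included F13a1 (the A chain of coagulation factor XIII, made by macrophages) and C5ar2 (a receptor of complement fragment C5a), with 0.994 and 0.993. For Prox1 they were Ccdc64, Lmcd1 and Grasp, for Ccl21a Foxo1, Lancl2 and Zfp422, and for Mmrn1 Mboat1, Ccdc80 and Clec10a (a macrophage lectin), with r from 0.96 to 0.99. With so few libraries such values are common: the gene that ranked 100 still had an r of 0.79 to 0.96, depending on the member.

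The summed level of general endothelial markers was higher in every Tamoxifen library, so the members were also set against these markers. Of the 17, 15 were higher at an unadjusted p under 0.05 in edgeR, against 7.39% of all genes tested. Groups without overlap were seen in 14, against 5.87% of all genes tested. The median log2 fold change of the 17 was 2.14. Cdh5, which encodes VE-cadherin, was at 656 ± 248 CPM in the Tamoxifen group and 98.4 ± 52.5 CPM in the vehicle group (SD, 4 libraries each). Averaged over the 17, the log2 level was 7.33 ± 0.43 in the Tamoxifen group and 5.14 ± 1.11 in the vehicle group (SD). More endothelial cells in an isolate and more of this RNA per endothelial cell cannot be told apart.

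Relative to this mean, no member was higher with Tamoxifen. The difference of log2 levels, Tamoxifen minus vehicle, was -0.32 for Foxc2, -1.03 for Lyve1, -1.41 for Ccl21a and for Reln, -1.61 for Prox1, -1.64 for Pdpn and -2.45 for Mmrn1. Vehicle library oil2315 had 0 counts of Prox1, Reln and Mmrn1. Its relative level was -4.68 for each, set by the pseudocount and its low marker mean, and for Reln the highest of the 8 libraries. The differences of Prox1, Reln and Mmrn1 thus rest in part on the pseudocount. Exact two-sided permutation tests over 4 against 4 libraries gave p from 0.0571 (Mmrn1) to 0.571 (Foxc2) in these 7 comparisons, so none passed 0.05. With library size alone, Prox1 and Mmrn1 reached p = 0.0286, the smallest possible, in the same exact permutation test. With a pseudocount of 2 CPM, Prox1, Mmrn1 and Reln reached that value in the same test. That pseudocount lay above both group means of Prox1, Reln and Mmrn1 (0.211 to 1.21 CPM), so it largely levelled these genes. What was left was mostly the pan-endothelial mean, whose groups did not overlap. That setting therefore cannot decide if these genes differed relative to the markers. By the difference between groups, though not by level, Foxc2 was the member closest to the pan-endothelial markers. Its relative level was -5.10 ± 0.46 in the Tamoxifen group and -4.79 ± 0.91 in the vehicle group (SD, 4 libraries each). The sign of that difference turned without oil2315 (0.06) and with a smaller pseudocount of 0.1 CPM (0.09).

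**Figure D3:**
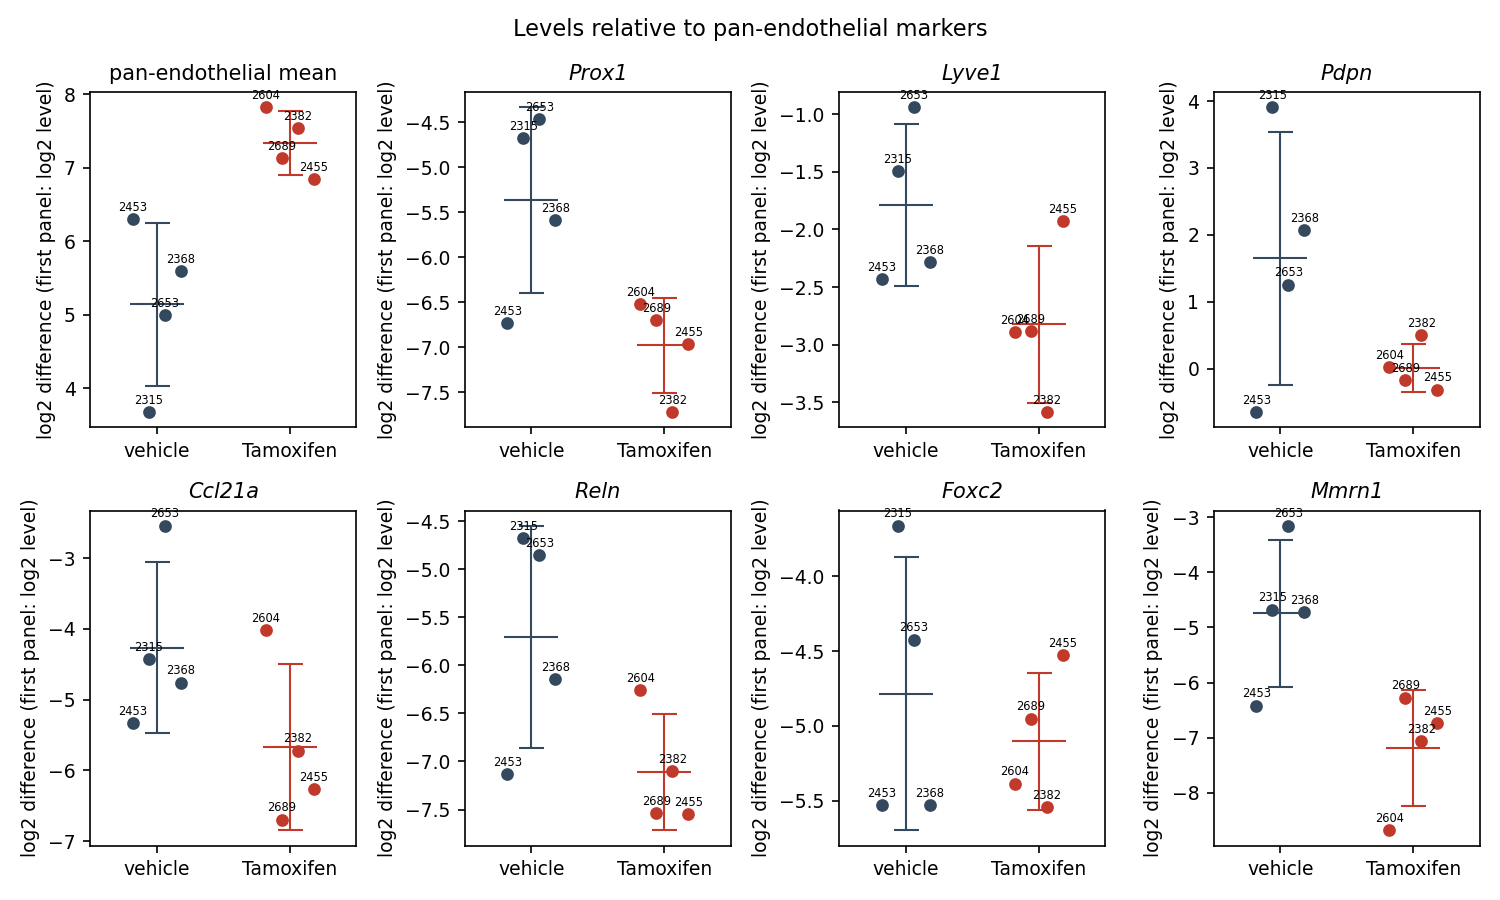
Log2 level averaged over 17 pan-endothelial markers (first panel) and log2 level of each member minus that mean (other panels), by library number, with mean and SD. The pan-endothelial mean is 2.19 higher with Tamoxifen without overlap, while the relative levels of the 7 members overlap between the groups.

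Scaling all libraries to the pan-endothelial markers shifted the median log2 fold change of all genes tested from -0.03 to -2.58 and called 13202 genes lower. Relative to that shift, Foxc2 was 2.73 higher, Lyve1 1.56, Prox1 1.44, Ccl21a 1.34 and Pdpn 0.08 higher, and Mmrn1 was at -0.20. Against zero in that scaling, Prox1, Lyve1, Pdpn and Ccl21a turned sign, to -1.15, -1.02, -2.50 and -1.24, and Foxc2 was at 0.14.

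**Figure D4:**
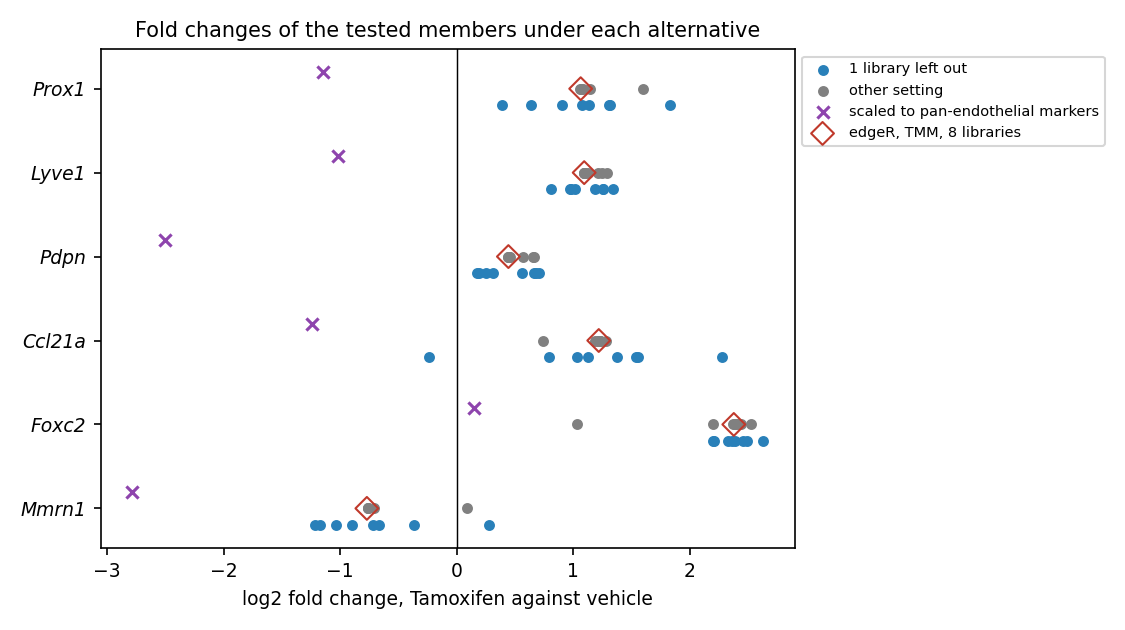
Log2 fold change (horizontal axis) of the 6 tested members in the edgeR fit over 8 libraries (open diamonds), with 1 library left out (blue), under other settings (grey) and scaled to the pan-endothelial markers (crosses). Foxc2 stays above 0 in each, Ccl21a falls to -0.24 in the fit without Tax2604, and the crosses lie below the diamonds, by amounts that differ between members.

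The growth signal of lymphatic vessels was read from 7 genes of VEGF-C signalling, of which 1 was higher at an unadjusted p under 0.05, against 7.39% of all genes tested, and 0 lower, and whose median log2 fold change was -0.43. Flt4, the VEGF-C receptor, which is also made by angiogenic blood vessel endothelium, was at 70.3 ± 30.0 CPM in the Tamoxifen group and 11.0 ± 8.08 CPM in the vehicle group (SD, 4 libraries each), without overlap. Its log2 fold change was 2.68 (SE 0.59, edgeR adjusted p = 0.11), and 5 of 17 alternatives placed it under an adjusted p of 0.05. Vegfc, its ligand, had a log2 fold change of 0.74 (adjusted p = 0.524 from edgeR) and Adamts14, a protease of the family that processes VEGF-C, -0.71 (adjusted p = 0.648). Without oil2453, Vegfc was at 1.39 (edgeR adjusted p = 0.0417).

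Of 9 other transcription factors of lymphatic development, 2 were higher at an unadjusted p under 0.05, both without overlap, against 7.39% and 5.87% of all genes tested, and 0 lower. Their median log2 fold change was -0.16, and 0.55 without oil2453. Sox18, which acts upstream of Prox1 in the embryo, was at 65.4 ± 22.3 CPM in the Tamoxifen group and 13.9 ± 13.8 CPM in the vehicle group (SD, 4 libraries each). Its log2 fold change was 2.24 (SE 0.66, edgeR adjusted p = 0.211). Sox18 was under an adjusted p of 0.05 in 4 of 17 alternatives, among them edgeR without oil2453, at 3.18 (adjusted p = 0.0382). Nfatc1, which acts with FOXC2 in valve formation, had 0.73 (SE 0.23, edgeR adjusted p = 0.247).

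Foxc2 was set beside other genes of lymphatic valves and junctions. Of the 14 listed, 12 were tested and 5 were higher at an unadjusted p under 0.05, all without overlap and 0 lower, against 7.39% higher and 5.87% without overlap among all genes tested, with a median log2 fold change of 1.06. Dchs1 and Fat4, atypical cadherins that bind each other and orient lymphatic endothelial cells as valves form, had log2 fold changes of 2.85 (SE 0.47, edgeR adjusted p = 0.0732) and 2.80 (SE 0.57, edgeR adjusted p = 0.0916). Efnb2, an ephrin ligand of arteries and of lymphatic valves, had 1.60 (SE 0.42, edgeR adjusted p = 0.163). All 3 are also made by blood vessel endothelium, and none passed the adjusted threshold in this fit. Of 17 alternatives, Dchs1 passed it in 6, as many as Foxc2, and Fat4 and Efnb2 in 2 each, among them Fat4 without oil2368, at 3.42 (adjusted p = 0.0451 from edgeR).

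The partners of podoplanin and a list around CCL21 were read next. Of 6 podoplanin partners, 0 were under an unadjusted p of 0.05 in edgeR, with a median log2 fold change of 0.36. C1galt1, which makes the sugar chains podoplanin needs, had 0.37, and Syk and Lcp2, which signal behind CLEC-2 in platelets, had 0.47 and 0.36. Of the CCL21 list only 2 of 5 rows were tested. Ackr2, a scavenging receptor of lymphatic endothelium for chemokines other than CCL21, had 1.62 (adjusted p = 0.405 from edgeR). Ccr7, the receptor of CCL21, had -0.80 (adjusted p = 0.673 from edgeR). Ccr7 was at 116 CPM in oil2653 and between 13.7 and 56.2 CPM in the other libraries, and its log2 fold change was 0.03 without that library.

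Both tested reelin receptors had groups that overlapped, with log2 fold changes of 0.54 for Vldlr and 0.13 for Lrp8 (adjusted p = 0.737 and 0.872 from edgeR). Of 8 tested hyaluronan genes, 1 was higher at an unadjusted p under 0.05, against 7.39% of all genes tested, and 0 lower. It was Stab1, a scavenger receptor of sinusoidal and lymphatic endothelium and of macrophages, with 1.23 (SE 0.43, edgeR adjusted p = 0.335). The groups of Stab1 overlapped. Has1, a hyaluronan synthase, had 0.65 and Hyal2, a hyaluronidase, 0.41. In the family of Mmrn1, Mmrn2, a matrix protein of blood vessel endothelium, had 2.73 (SE 0.50, edgeR adjusted p = 0.0798) without overlap of the groups and passed in 6 of 17 alternatives, while Emilin2 and Emilin1 had 0.30 and 0.16.

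**Figure D5:**
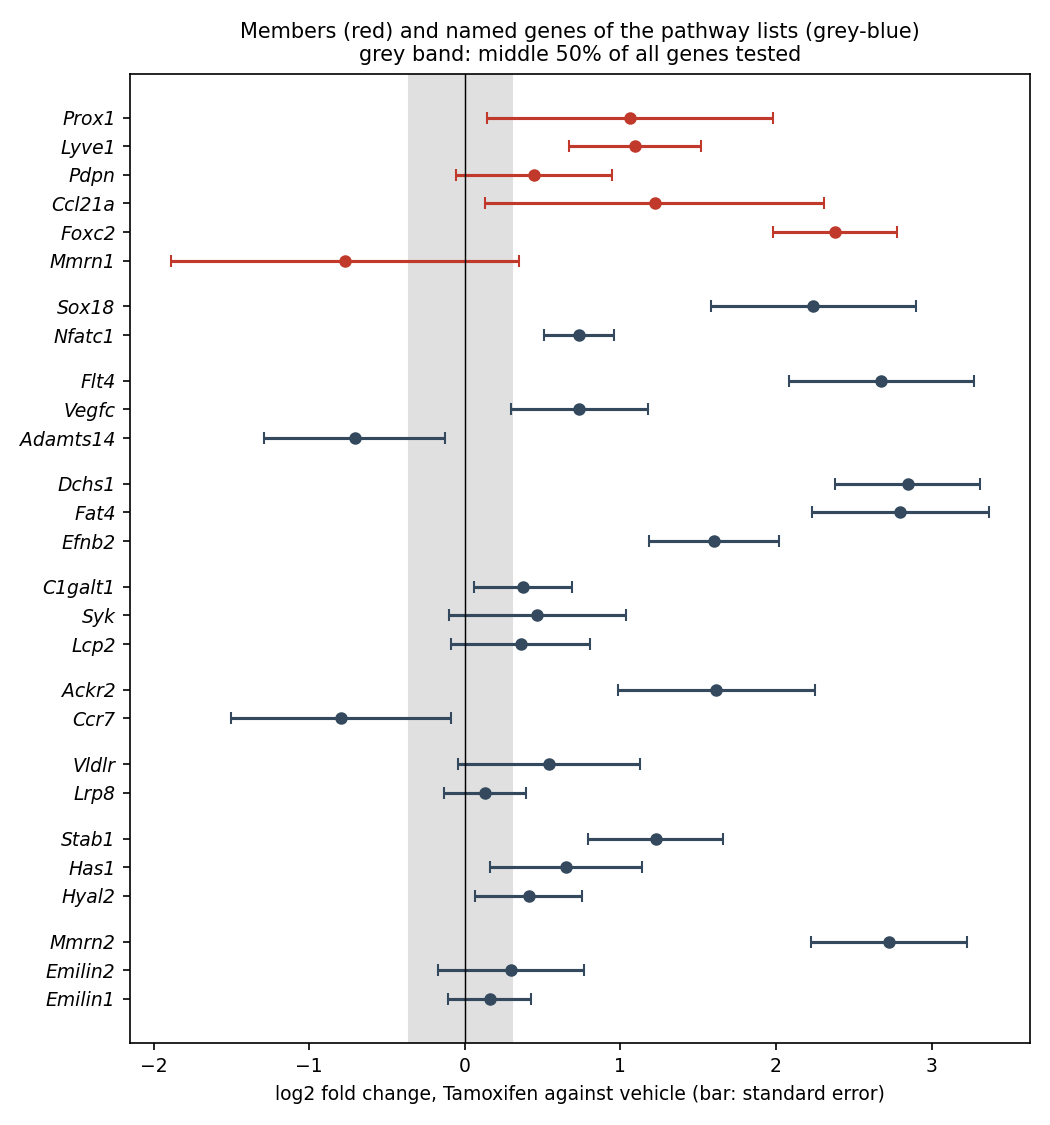
Log2 fold change of the 6 tested members (red) and of the named genes of the 8 pathway lists (grey-blue), with bars of 1 standard error and a grey band for the middle 50% of all genes tested. Foxc2 (2.38) lies with Flt4, Dchs1, Fat4 and Mmrn2, while Pdpn (0.44) lies near the band and Mmrn1 (-0.77) has a bar that crosses 0.

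Promoters of the members were searched for sites of PPAR and SOX factors, since the mice overexpress PPARβ/δ and SOX18 acts on Prox1. RefSeq sequences (GRCm38.p6) from 250 bases before to 50 after the start were at hand for 5 members (Prox1, Pdpn, Ccl21a, Reln and Mmrn1), in 6 promoters. The PPAR direct repeat, AGGTCA followed after 1 base by AGGTCA, was in 0 of the 6 and in 0.0396% of all 32851 promoters, on either strand. Its single repeat AGGTCA, which the direct repeat contains, was in the Pdpn promoter (chr4:143299515-143299814, minus strand) and in 16.3% of all promoters. It is shown with its flanks, the repeat in capitals.
Pdpn: aaacctggcctgAGGTCAtcttgtgatgct
The SOX site AACAAT was in the RefSeq window of Mmrn1 (chr6:60944067-60944366, plus strand), which lies inside the gene bounds given above, at an internal start, and in 10.7% of all promoters, and is likewise in capitals.
Mmrn1: gtgcgtgcattgAACAATgtggccttaaat
A match describes these letters in this window only.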

How the data were processed

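RNA of purified tumor endothelial cells from 8 libraries (4 Tamoxifen, 4 vehicle, grouped by the sample labels; 19730726 to 24884372 counts each) was analysed. The authors removed reads with adapters, poly-N and low quality and counted reads per gene with HTSeq 0.6.1; TopHat2 2.0.12, Bowtie2 2.2.3 and the build mm8 are named in the submitters' processing notes. The positions in the deposited table overlap those of GENCODE M21 (GRCm38) for 99.8% of 34490 shared gene identifiers. The deposited counts are whole numbers per gene, and the deposited FPKM values and gene lengths were made by the authors. No source used here says if counting was by strand, so antisense reads cannot be told apart. The authors' fold changes and p-values, which compare the groups with DESeq, were not used. Rows without a symbol held at most 0.235% of counts.

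The test was edgeR's quasi-likelihood test (R 4.3.3, edgeR 4.0.16) on TMM-normalized counts of the 14539 genes kept by its filter at a minimum count of 10, with group as the only term, Benjamini-Hochberg adjustment over all genes tested and calls at an adjusted p under 0.05. Levels are CPM, and log2 levels use a pseudocount of 0.5 CPM. For single values, all 70 assignments of libraries were permuted in an exact two-sided test. The edgeR, DESeq2 and limma-voom fits were also run on simulated counts with known changes. These had no shifts of single libraries, so they cannot show how the fits treat libraries such as oil2453. Alternatives were other scalings (median-of-ratios size factors, library size alone, pan-endothelial markers), DESeq2 1.42.0, limma-voom (limma 3.58.1), other filters, limma on log2(FPKM + 1) and log2(FPKM + 0.1), other pseudocounts and leaving out each library. Adding the copies to Ccl21a was chosen after seeing the data.

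The members and lists were chosen with earlier results of these data known. Named are the members, Flt4, Vegfc, up to 3 tested genes per pathway list with the smallest p, and the 3 genes most like each tested member, of which 2 genes in all are not reported here; Pecam1, Cdh5 and Mrc1 stand for their marker lists. Of 4 epithelial markers, 1 (Krt18) was lower at an unadjusted p under 0.05 in edgeR, against 515 of the 14539 genes tested. The groups of Krt18 overlapped, and it was at 353 CPM in oil2453 and at 14.4 to 74.1 CPM in the other libraries. Each library carries its own number, taken as that of a mouse, so p-values measure the spread between these libraries. The floor of 3 counts covers counting error only.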

Additional observations from a re-analysis of the deposited data

How the results depend on the processing

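Without a low-count filter edgeR called 68 genes, with library size alone 177, and scaled to the pan-endothelial markers 13202 (all lower). DESeq2 called 574, limma on log2(FPKM + 1) 317 and on log2(FPKM + 0.1) 221. Leaving out 1 library gave 0 to 256 calls, with 256 without oil2453 and 31 without oil2368. Other settings called no gene. Pan-endothelial scaling turned the log2 fold changes of Prox1 (-1.15), Lyve1 (-1.02), Pdpn (-2.50), Ccl21a (-1.24), Nfatc1 (-1.90), Vegfc (-1.39), Efnb2 (-0.63), C1galt1 (-2.44), Syk (-2.50), Lcp2 (-2.47), Ackr2 (-0.33), Vldlr (-2.21), Lrp8 (-2.51), Stab1 (-1.73), Has1 (-1.49), Hyal2 (-1.84), Emilin2 (-2.69) and Emilin1 (-2.23), as it lowered all genes together by construction. Under limma-voom the log2 fold change of Mmrn1 was 0.0892. With a pseudocount of 0.1 CPM the relative level of Foxc2 differed by 0.0892 between the groups. These are separate quantities that agree only after rounding, and the cause of neither was tested.

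With 1 library left out, log2 fold changes ranged from -0.24 to 2.28 for Ccl21a, from -1.22 to 0.28 for Mmrn1, from -1.32 to 0.0287 for Ccr7, from -0.00631 to 0.24 for Lrp8 and from -0.0671 to 0.31 for Emilin1. The level difference of Mmrn1 ranged from -0.72 to 0.23 and the relative level of Foxc2 from -0.56 to 0.0582. Prox1, Reln and Mmrn1 held 98 to 176 counts over all 8 libraries. No paired analysis was possible because the groups share no replicate numbers.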
